A study of Mus musculus with 12 samples.

Results

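The platelet-derived growth factor (PDGF) genes and the Kit gene encode a small set of secreted or membrane-bound ligands and the receptor tyrosine kinases that bind them. They were chosen by gene symbol: a gene was included if a probe set of the array, the group of short probes summarised into 1 value for a transcript, carried its symbol and no other. Of the 8 genes named, 7 had such a probe set, 1 each: the receptors Pdgfra, Pdgfrb and Kit, and the ligands Pdgfa, Pdgfb, Pdgfc and Pdgfd. Kitl, the ligand of Kit, had none and is not analysed here. The 7 genes stand among 17103 genes tested.

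The data are 12 Affymetrix Mouse Gene 1.0 ST arrays of RNA from mouse cells, 3 in each of 4 groups. Cells labelled induced neural stem cells formed groups iNSC1 and iNSC2 (replicates 1 to 3 in each), wild-type neural stem cells the NSC group (replicates 1 to 3), and wild-type mouse embryonic fibroblasts the MEF group (replicates 1, 3 and 5). The iNSC and NSC cells grew in neural stem cell medium with EGF and FGF-2 at 20 ng/ml each and heparin at 2 µg/ml, the MEF cells in DMEM with 10% fetal bovine serum, and all were rinsed in medium lacking serum before harvest. Medium and cell type therefore cannot be told apart in any comparison with MEF. The labels do not say how iNSC1 differs from iNSC2, which factors induced the cells, or whether the arrays of a group are separate cultures, so p-values measure the spread between these arrays, which may be technical. The array medians lay between 4.31 and 4.44, and the number of arrays limits the precision of every value below.

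PDGFs act as dimers. The A and B chains bind the receptor directly, whereas the C and D chains are secreted as inactive forms that proteases must cut first. PDGF receptor alpha, encoded by Pdgfra, binds the A, B and C chains and drives the growth of fibroblasts and, in the brain, of oligodendrocyte progenitors. PDGF receptor beta, encoded by Pdgfrb, binds the B and D chains and is best known from the pericytes and smooth muscle cells of vessel walls. Kit, the receptor of stem cell factor, belongs to the same receptor class and is known from germ cells, melanocytes, mast cells and blood stem cells.

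The readings only partly match the labels. Pou5f1, a transcription factor of pluripotent cells, read 12.9 to 13.0 on the log2 scale on the 9 arrays labelled iNSC or NSC, as group means, against 3.54 in MEF. Sox2, which neural stem cells need, had group means of 4.42 to 4.58 in all 4 groups. Of 10 neural stem cell markers, 2 were at least 2-fold higher in NSC than in MEF and 0 in iNSC (limma put 5 of the 10 at an unadjusted p under 0.05 in either comparison). The count of 2 became 1, with Sox1 lost, without MEF replicate 1 or with arrays centred on their medians. In iNSC minus MEF, Nes, Sox1, Pax6, Msi1 and Prom1 had an adjusted p under 0.05 and were all higher, by 0.52 to 0.89. By contrast, all 9 fibroblast markers were called in both comparisons, 9 lower in NSC, and 8 lower and 1 higher in iNSC. Over all genes 10.9% were lower and 8.21% higher in iNSC minus MEF, and 9.96% and 8.72% in NSC minus MEF. The genes tested were those with a mean above 3 in iNSC, NSC or MEF. Lum and Postn passed that bound in MEF alone, so they had to read lower elsewhere. Group names below are therefore labels, not established cell types. The Pou5f1 reading was shared by all 9 arrays, so no comparison could be made without the arrays that carry it. Macrophage markers moved with the MEF label as well: 5 of 7 were lower in iNSC and 5 of 7 in NSC, and their mean log2 value over the 7 genes was 6.67 to 6.96 on the MEF arrays and 3.52 to 3.79 on the other arrays. Lyz2, Adgre1 and Ptprc passed the bound of 3 in MEF alone and had to read lower elsewhere. Lyz2 is in both counts and Adgre1 in that of NSC. The part of macrophage markers in the results below was not tested. In RNA from whole cultures, fewer cells of a type and less RNA per cell cannot be told apart.

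Pdgfra and Kit are neighbours on mouse chromosome 5, followed by Kdr, a receptor for VEGF, in RefSeq annotation of GRCm38.p6. The authors' table places the Pdgfra transcript on the plus strand of chromosome 5 at 75548361 to 75594223, and Kit on the same strand at 75971033 to 76052747, in coordinates whose build was not given in the sources used here. Pdgfa lies there on chromosome 5 at 139451968 to 139470907, Pdgfb on chromosome 15 at 79826304 to 79845238, Pdgfc on chromosome 3 at 80840338 to 81017956, and Pdgfd on chromosome 9 at 6168612 to 6378845. Windows of 250 bases next to annotated starts were searched for 6 of the 8 genes: Pdgfra, Pdgfa, Pdgfc, Pdgfd, Kit and Kitl. Pdgfrb was left out of the search, and Pdgfb had no window. Of Kit and Pdgfc 1 window each is shown, since no other searched window ends before its gene's first annotated base. The windows of Pdgfra, Pdgfa, Pdgfd and Kitl, and another of Kit, do not, so matches in them may lie inside the gene. Both windows are the 250 bases that end just before the gene's first annotated base in RefSeq (GRCm38.p6, plus strand), Kit at chr5:75574737-75574986 and Pdgfc at chr3:81036166-81036415, with motif matches in capitals:
Kit: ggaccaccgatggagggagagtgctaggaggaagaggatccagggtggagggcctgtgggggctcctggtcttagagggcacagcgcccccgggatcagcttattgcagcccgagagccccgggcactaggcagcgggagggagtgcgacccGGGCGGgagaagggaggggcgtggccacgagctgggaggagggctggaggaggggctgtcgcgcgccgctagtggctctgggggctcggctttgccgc
Pdgfc: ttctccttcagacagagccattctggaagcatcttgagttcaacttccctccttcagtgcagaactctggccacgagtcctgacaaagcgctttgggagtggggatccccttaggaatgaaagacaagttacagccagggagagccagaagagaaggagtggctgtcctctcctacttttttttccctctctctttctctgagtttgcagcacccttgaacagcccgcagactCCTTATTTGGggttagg

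The capitals in Kit mark a GC box (GGGCGG, bound by Sp1), beginning 98 bases before the annotated start, and those in Pdgfc a CArG box, the motif of serum response factor, beginning 17 bases before it. Neither match overlaps another motif searched. Searched on both strands, the GC box occurred in 32.7% and the CArG box in 1.47% of 32841 mouse windows of the same length. The CArG search was added after the Pdgfc window had been read. None of the windows of the 6 genes held the AP-1 site TGANTCA (6.75% of all windows), the octamer ATGCAAAT (1.6%) or the CCAAT box CCAAT (33.9%). The TATA box TATAAA (12.4%) was found in those of Pdgfd and Kitl, and the GC box also in those of Pdgfa and Kitl. GC content was 70.8% in the Kit window and 50.8% in the Pdgfc window, against a median of 52.4% over all windows. These matches describe the letters of these windows only.

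Against MEF, both PDGF receptor genes and 3 of the 4 PDGF ligand genes read lower and Pdgfb read higher, in the iNSC and in the NSC arrays alike, and Kit did not reach a 2-fold difference. A call needed a difference of at least 2-fold and, in limma, a linear model with a moderated spread, an adjusted p under 0.05 (Benjamini-Hochberg, over the 17103 genes). Under that rule 5 of the 7 genes were lower and 1 higher in iNSC than in MEF, where 10.9% and 8.21% of all genes were called in those directions. The NSC minus MEF comparison also called 5 lower and 1 higher, against 9.96% and 8.72% of all genes. These comparisons share the MEF arrays, and Pdgfd, for a reason given below, had to read lower in both. All arrays of the groups were separate for 6 of the 7 genes in iNSC minus MEF, against 49.2% of all genes, and for 7 of 7 in NSC minus MEF, against 57%. With the adjusted p alone, 6 of 7 passed in the former (55.9% of all genes) and 7 of 7 in the latter (51.9%). Each induced set alone gave 6 calls against MEF, where 19.8% of all genes were called for iNSC1 and 18.7% for iNSC2. The median difference over the 7 genes was -1.92 in iNSC minus MEF, where the median over all genes was 0.061, and -1.51 against 0.045 in NSC minus MEF. The genes were chosen with earlier results of these data known, and so these counts do not support a pattern of their own.

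**Figure D1:**
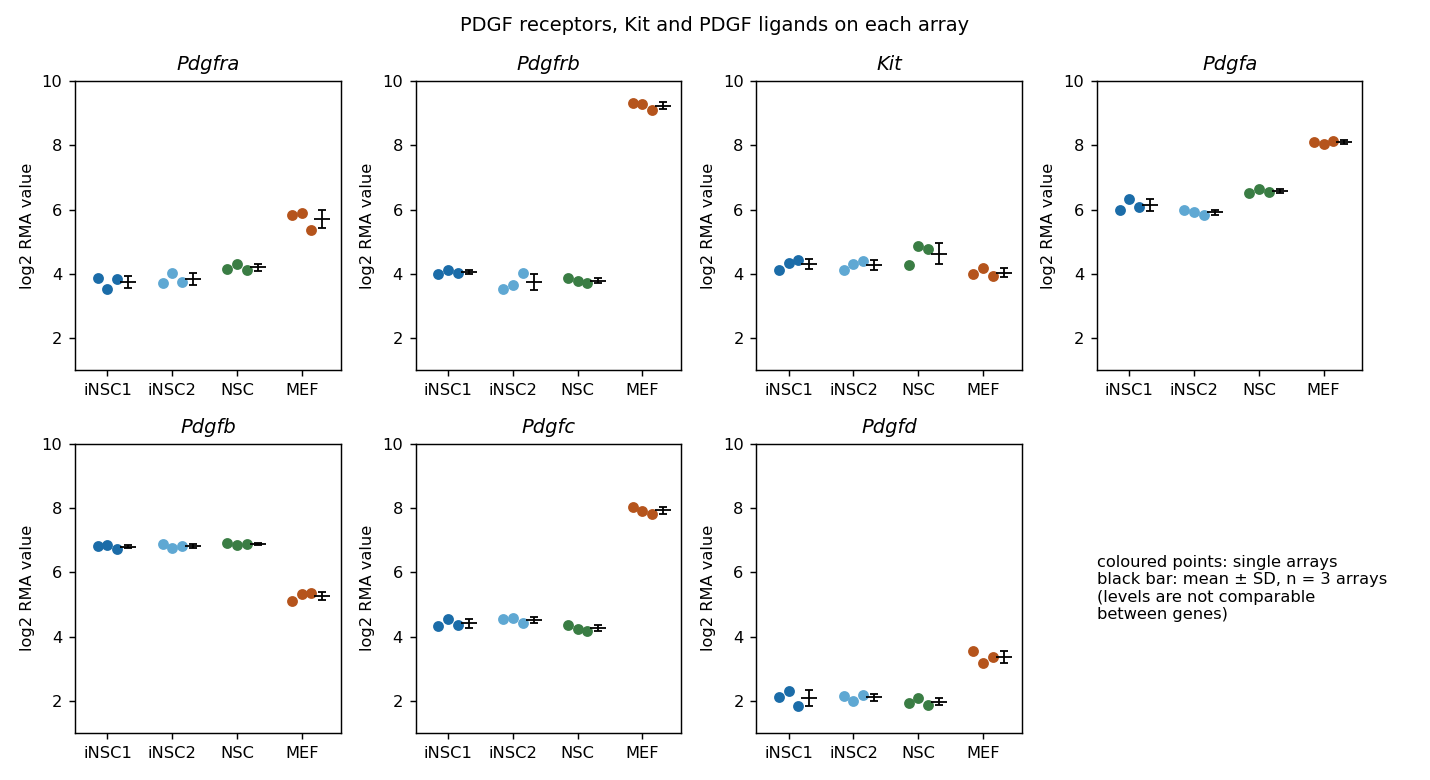
Log2 RMA value (vertical axis) of each measured gene on every array, by group (horizontal axis), with coloured points for single arrays and black bars for the mean ± SD of 3 arrays. The MEF arrays lie above the other 9 for 5 genes and below them for Pdgfb, whereas the Kit values of all groups lie between 3.93 and 4.86.

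The arrays carry no detection call, and many readings of these genes lie near or below the array medians of 4.31 to 4.44: those of Pdgfra, Pdgfrb, Pdgfc and Pdgfd on the iNSC and NSC arrays, of Pdgfd in MEF, and of Kit on most arrays. Such readings can be background. Folds against them compare readings and not transcript numbers, and an order among them need not be one of transcript levels.

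Pdgfrb, which the authors' table places on chromosome 18 at 61204804 to 61244715, showed the largest difference. The 3 MEF arrays read 9.315, 9.281 and 9.10, the iNSC1 arrays 4.005, 4.127 and 4.012, the iNSC2 arrays 3.539, 3.666 and 4.04, and the NSC arrays 3.87, 3.787 and 3.71. Every MEF array thus stood far above each of the others, and the iNSC and NSC ranges overlapped. iNSC minus MEF was -5.33 ± 0.11 (SE, n = 6 and 3 arrays; 40.3-fold between readings; adjusted p = 5.48e-17) and NSC minus MEF was -5.44 ± 0.13 (SE, n = 3 and 3; 43.5-fold; adjusted p = 4.32e-16). Behind MEF the group means ran from 4.05 ± 0.069 in iNSC1 through 3.79 ± 0.080 in NSC to 3.75 ± 0.26 in iNSC2 (SD, n = 3 each), and no neighbours in that order differed at an adjusted p under 0.05 (0.136 for iNSC1 against NSC and 0.87 for iNSC2 against NSC).

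Pdgfra had readings in the same low range on all arrays but those of MEF. Its MEF arrays read 5.844, 5.895 and 5.379, its NSC arrays 4.165, 4.307 and 4.118, its iNSC1 arrays 3.859, 3.53 and 3.844, and its iNSC2 arrays 3.707, 4.041 and 3.731. All MEF arrays were above all NSC arrays, and all NSC arrays were above all 6 iNSC arrays. The difference was -1.92 ± 0.13 for iNSC minus MEF (SE; 3.79-fold between readings; adjusted p = 5.11e-10) and -1.51 ± 0.15 for NSC minus MEF (2.85-fold; adjusted p = 1.23e-07). iNSC minus NSC was -0.41 ± 0.13 (95% confidence interval -0.69 to -0.14; adjusted p = 0.0191), which is under 2-fold and lost its adjusted p without NSC replicate 2 (-0.36, adjusted p = 0.0962). Taken alone, iNSC1 lay below NSC (-0.45, adjusted p = 0.0269) and iNSC2 missed the threshold (-0.37, adjusted p = 0.0756), while iNSC1 minus iNSC2 itself was -0.082 (interval -0.40 to 0.24; adjusted p = 0.902).

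Kit, the neighbour of Pdgfra, stayed in a narrow range on all 12 arrays. It read 3.993, 4.182 and 3.934 in MEF, 4.121, 4.334 and 4.438 in iNSC1, 4.113, 4.315 and 4.398 in iNSC2, and 4.264, 4.858 and 4.759 in NSC. NSC replicate 1 lay inside the iNSC range, and the other NSC arrays lay above every array of the other groups. NSC minus MEF was 0.59 ± 0.15 (SE, n = 3 and 3; 1.51-fold; 95% confidence interval 0.27 to 0.91; adjusted p = 0.00309), below the 2-fold minimum. iNSC minus MEF was 0.25 ± 0.13 (interval -0.028 to 0.53; adjusted p = 0.119). For iNSC minus NSC, -0.34 ± 0.13 (interval -0.62 to -0.063), the adjusted p was 0.0533. The value moved most with single NSC arrays: it was -0.52 (adjusted p = 0.0042) without NSC replicate 1 and -0.23 (adjusted p = 0.289) without NSC replicate 2. The adjusted p was also under 0.05 without iNSC1 replicate 3 (0.0451), iNSC2 replicate 3 (0.045) or MEF replicate 5 (0.0496). Leaving out any other array kept it over 0.05. In the order NSC, iNSC1, iNSC2, MEF no neighbours passed an adjusted p of 0.05. Kdr, the next gene along the chromosome, had group means of 4.02 in MEF, 4.08 in NSC, 3.98 in iNSC1 and 3.99 in iNSC2, and differed by -0.034 in iNSC minus MEF (adjusted p = 0.827).

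Among the ligands, Pdgfc, an activator of PDGF receptor alpha once cut, differed most. It read 8.032, 7.922 and 7.826 in MEF, 4.313, 4.557 and 4.355 in iNSC1, 4.555, 4.59 and 4.419 in iNSC2, and 4.358, 4.23 and 4.179 in NSC. No MEF array came within 3 log2 units of any other array. The difference was -3.46 ± 0.095 for iNSC minus MEF (SE; adjusted p = 2.08e-15) and -3.67 ± 0.11 for NSC minus MEF (12.7-fold between readings; adjusted p = 1.19e-14). iNSC minus NSC was 0.21 ± 0.095 (interval 0.0077 to 0.41; adjusted p = 0.104).

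Pdgfa, the main ligand of PDGF receptor alpha on glial and mesenchymal cells, differed between MEF, NSC and iNSC. Its values were 8.109, 8.031 and 8.149 in MEF, 6.523, 6.644 and 6.56 in NSC, 5.988, 6.341 and 6.072 in iNSC1, and 5.976, 5.936 and 5.826 in iNSC2. The groups were ordered MEF, NSC, iNSC1 and iNSC2 with no overlap between any 2 of them. iNSC minus MEF was -2.07 ± 0.087 (SE; 4.21-fold; adjusted p = 6.96e-13) and NSC minus MEF was -1.52 ± 0.10 (2.87-fold; adjusted p = 5.34e-10). iNSC minus NSC was -0.55 ± 0.087 (interval -0.74 to -0.37; adjusted p = 6.12e-05), a 1.47-fold difference under the minimum that kept an adjusted p under 0.05 in all 22 alternatives. iNSC1 minus iNSC2, 0.22 ± 0.10 (interval 0.0082 to 0.43), did not pass (adjusted p = 0.402), and was 0.12 without iNSC1 replicate 2.

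Pdgfb, whose product binds both PDGF receptors and which endothelial cells and platelets are known to release, ran the other way. The arrays read 5.111, 5.32 and 5.354 in MEF, 6.817, 6.84 and 6.734 in iNSC1, 6.882, 6.769 and 6.817 in iNSC2, and 6.909, 6.858 and 6.884 in NSC. All 9 iNSC and NSC arrays fell within 6.73 to 6.91, above every MEF array. Pdgfb rose by 1.55 ± 0.081 in iNSC minus MEF (SE; 2.92-fold; adjusted p = 1.31e-11) and by 1.62 ± 0.093 in NSC minus MEF (3.08-fold; adjusted p = 7.47e-11). iNSC minus NSC was -0.074 (interval -0.24 to 0.096; adjusted p = 0.541). Endothelial markers were also higher outside MEF: of 5 measured, 2 were higher in iNSC and 3 in NSC than in MEF, with 0 lower. Over all genes 8.21% and 8.72% were higher. The mean log2 value of the 5 was 3.78 to 3.97 on the MEF arrays, 4.54 to 4.71 on the iNSC arrays and 5.03 to 5.07 on the NSC arrays. In iNSC minus NSC, where Pdgfb was not called, 2 of the 5 were lower, Pecam1 (-1.48) and Tek (-1.40), against 3.65% of all genes. Cdh5, the cadherin of endothelial junctions, was not called in any of the 3 comparisons (0.046 in iNSC minus MEF, -0.051 in NSC minus MEF and 0.097 in iNSC minus NSC). The part of these markers in the Pdgfb difference was not tested.

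Pdgfd, an activator of PDGF receptor beta once cut, was listed through its MEF arrays alone. It read 3.564, 3.163 and 3.361 in MEF, 2.111, 2.311 and 1.841 in iNSC1, 2.144, 1.993 and 2.195 in iNSC2, and 1.943, 2.083 and 1.873 in NSC. The authors' annotated table lists probe sets whose highest mean among iNSC, NSC and MEF is above 3, and Pdgfd passes that bound only in MEF (mean 3.36 ± 0.20, SD, n = 3). A gene listed in this way had to read lower elsewhere, so its call adds nothing to the count above. The difference was -1.26 ± 0.12 in iNSC minus MEF (SE; adjusted p = 4.84e-08) and -1.40 ± 0.14 in NSC minus MEF (adjusted p = 1.14e-07). iNSC minus NSC was 0.13 (interval -0.12 to 0.39; adjusted p = 0.448).

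**Figure D2:**
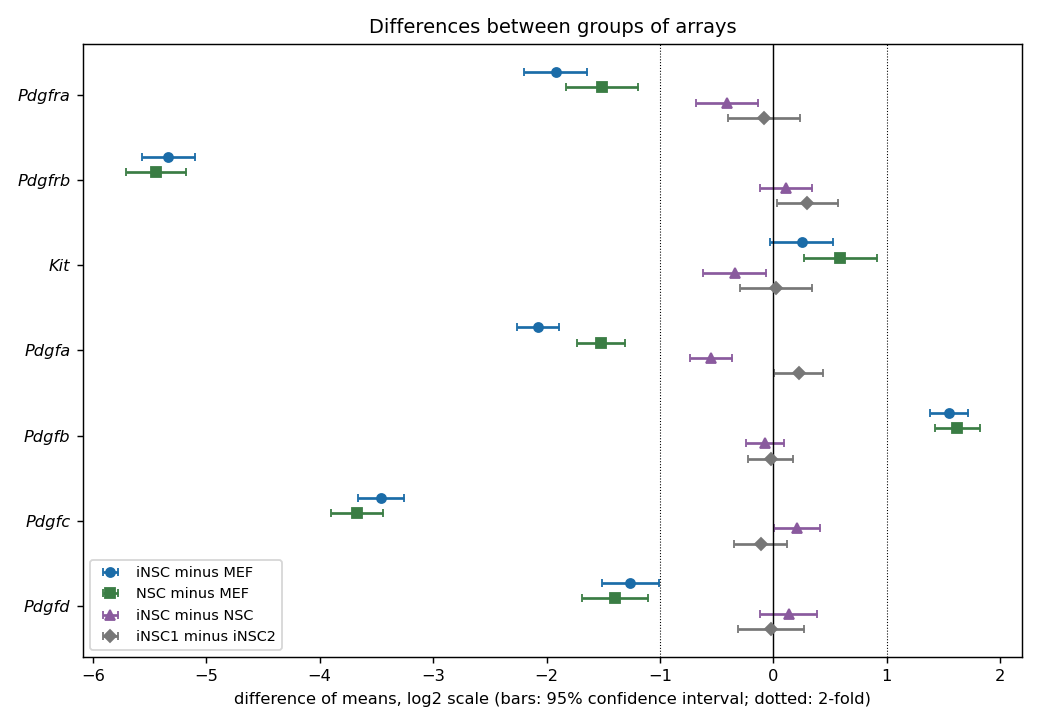
Difference of group means on the log2 scale (horizontal axis) for each gene (vertical axis) in 4 comparisons, with 95% confidence intervals as bars and dotted lines at a 2-fold difference. The differences from MEF lie outside the dotted lines for every gene shown except Kit, and those of iNSC minus NSC and iNSC1 minus iNSC2 lie inside them for all 7.

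Between the iNSC and NSC arrays, 0 of the 7 genes were called, where 6.55% of all genes were. limma put 4 of them at an unadjusted p under 0.05 (Pdgfra, Pdgfa, Pdgfc and Kit) and 2 at an adjusted p under 0.05 with no fold minimum (Pdgfra and Pdgfa, both lower in iNSC), where 35.8% of all genes passed. Groups did not overlap for the same 2 genes, against 33% of all genes. Set alone against NSC, iNSC1 had 0 calls and 2 genes with an adjusted p under 0.05 (6.74% and 33.4% of all genes), and iNSC2 had 0 and 1 (6.65% and 30.3%). The authors' deposited table gives 3 of the 7 an adjusted p under 0.05 in this comparison, adding Kit (log2 ratio -0.34, adjusted p 0.038); the test behind it is not stated.

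Between iNSC1 and iNSC2, 0 of the 7 genes were called, against 0.152% of all genes, and limma gave an unadjusted p under 0.05 for 2, Pdgfrb and Pdgfa. At an adjusted p under 0.05 with no fold minimum, 0 of 7 passed, against 2.3% of all genes, and the arrays were separate for Pdgfa alone, against 17.9% of all genes. Pdgfrb had the widest difference, 0.30 ± 0.13 (interval 0.032 to 0.57; adjusted p = 0.35). Its iNSC1 and iNSC2 arrays overlapped. The other 6 intervals lay within -0.40 and 0.43, so a 2-fold difference between the sets was outside the interval of each gene.

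The genes whose pattern over the 12 arrays came closest to each called member were found by the root mean square difference of log2 values, each gene centred on its own mean. For Pdgfrb they were Pdpn, the mucin-like podoplanin (0.13), and the collagen genes Col3a1 (0.17) and Col12a1 (0.17). Pdgfc was closest to Mical2, which oxidises actin (0.14), Sgk1, a kinase induced by serum and glucocorticoids (0.14), and P4ha3, a subunit of collagen prolyl hydroxylase (0.14). Pdgfra was closest to Tmem167b, Golga7 and Acp2, a lysosomal phosphatase (0.15 to 0.16), and Pdgfa to Serf2, Ctsa, a lysosomal carboxypeptidase, and Mvp, the major vault protein (0.14 to 0.15). Pdgfb came closest to Ccar2 (0.079), Sdr39u1 (0.093) and Vars2, a mitochondrial tRNA synthetase (0.094), and Pdgfd to the imprinted gene Nnat (0.0998), Arhgap29 (0.11) and Cnrip1 (0.11). Pearson's r over the 12 arrays was 0.981 to 0.999 for these 18 genes. The arrays fall into separate groups, so these values describe likeness only.

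**Figure D3:**
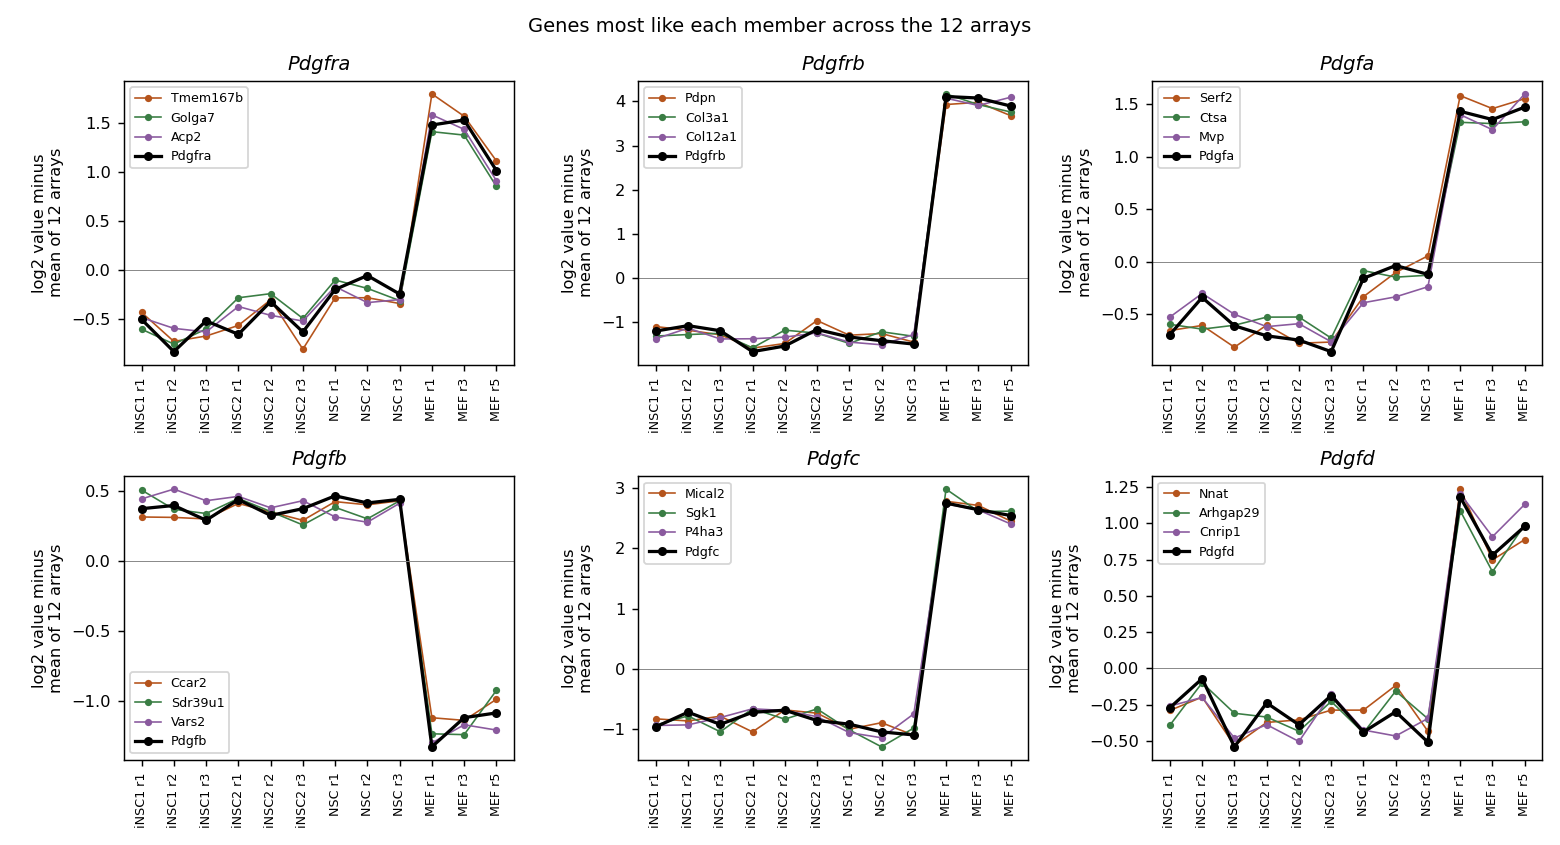
Log2 value minus the mean of 12 arrays (vertical axis) on each array (horizontal axis, r for replicate) for each called member, in black, and the 3 genes most like it, in colour. Vertical scales differ between panels. The step between the NSC and the MEF arrays dominates each panel, and the NSC arrays of Pdgfra and Pdgfa themselves also lie above their iNSC arrays, which does not hold for all of the genes drawn with them.

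The wider pathway was described by 4 lists of genes. In the list of related receptors and ligands, which holds receptors of the same class, the VEGF family and co-receptors, 14 of 15 genes were measured. Of these, 5 were lower and 1 higher in iNSC than in MEF, 4 lower and 1 higher in NSC than in MEF, and 1 lower and 1 higher in iNSC than in NSC. The shares over all genes were 10.9% lower and 8.21% higher in iNSC minus MEF, and 9.96% and 8.72% in NSC minus MEF. In iNSC minus NSC 6.55% of all genes were called. The median differences of the list were -0.75, -0.69 and 0.048, against 0.061, 0.045 and 0.008 over all genes. Csf1, the ligand of the macrophage receptor Csf1r, changed by -6.83 ± 0.15 in iNSC minus MEF and by -6.00 ± 0.17 in NSC minus MEF (SE), and Vegfd, a growth factor of lymphatic vessels, by -4.99 ± 0.11 and -5.21 ± 0.13. Nrp1, a co-receptor of VEGF and semaphorins, changed by -3.37 ± 0.13 and -3.44 ± 0.15, and Csf1r itself by -2.30 ± 0.10 and -2.50 ± 0.12.

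In this list the iNSC and NSC arrays parted at 2 genes. Il34, the other ligand of Csf1r, read 9.06 ± 0.046 in NSC against 4.78 ± 0.40 in iNSC1, 4.64 ± 0.056 in iNSC2 and 5.53 ± 0.16 in MEF (SD, n = 3 each). It was -4.35 ± 0.13 in iNSC minus NSC (SE; adjusted p = 3.44e-14). Flt1, a receptor for VEGF, read 7.06 ± 0.12 in iNSC1 and 7.24 ± 0.10 in iNSC2 against 5.07 ± 0.050 in NSC and 5.50 ± 0.18 in MEF (SD), and was 2.08 ± 0.094 higher in iNSC than in NSC (SE; adjusted p = 6.96e-12). The arrays of the groups did not overlap for either gene.

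Proteases that release active PDGF and partners of the ligands and receptors were lower in 4 of 11 genes in iNSC and in 5 of 11 in NSC than in MEF, with 0 higher in either. Over all genes 10.9% and 9.96% were lower and 8.21% and 8.72% higher, and 6.55% were called in iNSC minus NSC. Plat, the tissue plasminogen activator that cuts PDGF-C, averaged 7.95 ± 0.095 on the MEF arrays and 3.99 ± 0.15 on the NSC arrays (SD, n = 3), and changed by -3.99 ± 0.10 in iNSC minus MEF (SE). Plau, the urokinase that cuts PDGF-D, changed by -4.99 ± 0.10 in the same comparison and by -4.58 ± 0.12 in NSC minus MEF. Sparc, a matrix protein that binds PDGF, changed by -2.67 ± 0.069 and -2.95 ± 0.080. Lrp1, a scavenger receptor that associates with PDGF receptor beta, was the 1 member called in iNSC minus NSC (-1.40 ± 0.058; adjusted p = 2.34e-12) and also differed from MEF (-2.48 ± 0.058 in iNSC and -1.09 ± 0.067 in NSC). It read 7.46 ± 0.021 in iNSC1 and 8.35 ± 0.072 in iNSC2 (SD, n = 3).

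Signalling proteins next to the receptors were called in both directions. Of 28 measured, 4 were lower and 2 higher in iNSC than in MEF, and 3 lower and 4 higher in NSC than in MEF, with list medians of -0.19 and -0.10. Over all genes 10.9% were lower and 8.21% higher in the former comparison, and 9.96% and 8.72% in the latter. The median size of the difference, whatever its sign, was 0.50 and 0.67 in the list, against 0.33 over all genes in each. Src, a kinase recruited by activated PDGF receptors, changed by -1.57 ± 0.097 in iNSC minus MEF, Gab2, a docking protein, by -1.51 ± 0.14, Ptpn11, the phosphatase SHP2, by -1.33 ± 0.12, and Stat5a, a transcription factor activated by Kit in blood cells, rose by 1.39 ± 0.079 (SE). In NSC minus MEF, Sos1, the exchange factor that loads RAS, rose by 1.42 ± 0.16 and Lyn, a kinase that binds Kit, by 1.36 ± 0.14, while Ptpn11 changed by -1.47 ± 0.14 and Gab2 by -1.40 ± 0.17. Shc1, an adaptor for RAS signalling, was the 1 member called in iNSC minus NSC (-1.05 ± 0.065), where 6.55% of all genes were called. This count of 1 became 3 without NSC replicate 3, with Sos1 and Lyn added. It became 2, with Lyn added, without iNSC1 replicate 3 or iNSC2 replicate 1.

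The list of signal attenuators, which holds ubiquitin ligases, phosphatases and feedback inhibitors, was lower in iNSC than in NSC in 8 of 18 measured genes and higher in 0, where 3.65% of all genes were lower. Its median was -0.78, against 0.008 over all genes. The list was chosen with earlier results of these data known, and so these counts do not support a pattern of their own. Spry2, a feedback inhibitor of receptor tyrosine kinase signalling, read 9.05 ± 0.099 in NSC, 6.72 ± 0.042 in iNSC1, 7.23 ± 0.11 in iNSC2 and 8.53 ± 0.077 in MEF (SD, n = 3 each), and changed by -2.07 ± 0.074 in iNSC minus NSC (SE). Lrig1, which lowers receptor levels, changed by -1.98 ± 0.095, and Dusp6, a phosphatase of ERK, by -1.70 ± 0.083. Other members called were Socs3 (-1.28), Ptprj (-1.18), Spry4 (-1.07) and Sh2b2 (-1.03), named after their values were seen. Sh2b2 lost its call without iNSC1 replicate 2 (-0.999) and with arrays centred on their medians (-0.97), Ptprj without NSC replicate 1 (-0.97), and Socs3 when a gene's probe sets were averaged (-0.66). In NSC minus MEF 4 of 18 were higher, Ptprj (1.72), Spry4 (1.62), Spred2 (1.35) and Lrig1 (1.17), where 8.72% of all genes were higher. In iNSC minus MEF 3 were lower and 1 higher, against 10.9% and 8.21% of all genes, which became 2 lower and 0 higher without MEF replicate 5. These proteins act on many receptors besides those of PDGF and Kit. Between iNSC1 and iNSC2, 0 genes were called in any of the 4 lists by limma with the 2-fold minimum, 15 had an unadjusted p under 0.05, and 5 passed an adjusted p under 0.05 (Sparc, Lrp1, Slc9a3r1, Gab1 and Spry2). Gab1 was also called, past 2-fold, without iNSC1 replicate 3, without iNSC2 replicate 3 and with arrays centred on their medians.

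**Figure D4:**
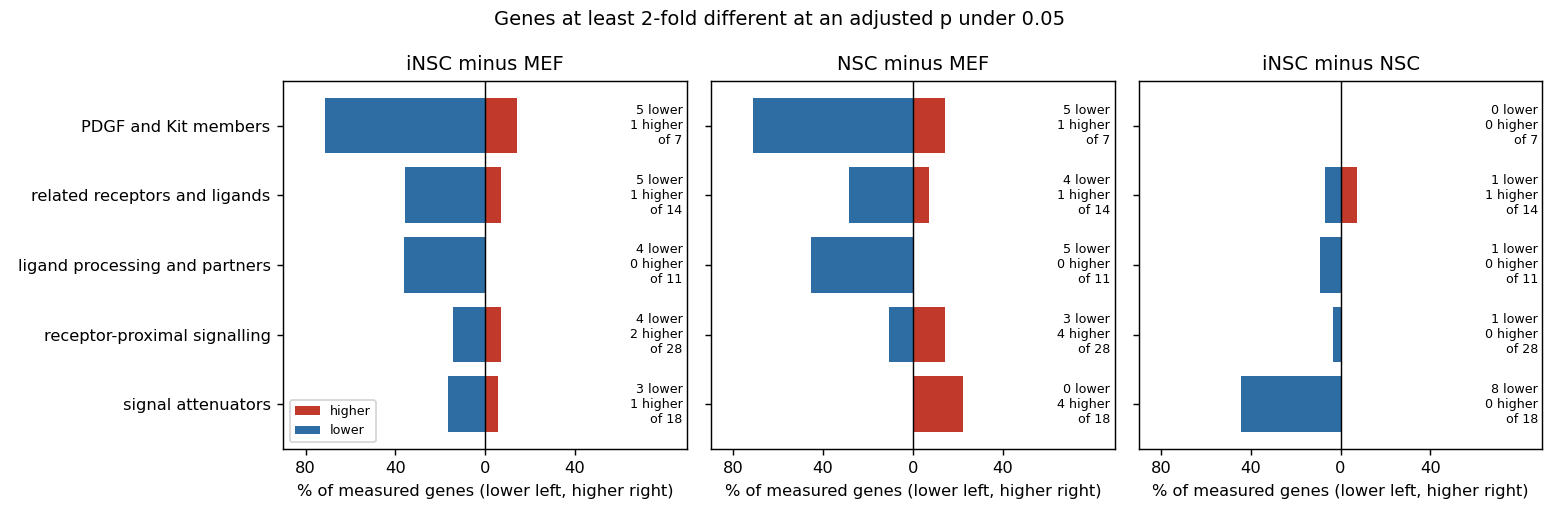
Share of measured genes called lower (left, blue) or higher (right, red) in 3 comparisons, in percent, for the PDGF and Kit genes and 4 pathway lists, with counts printed at the right. The largest share in iNSC minus NSC is that of the signal attenuators, with 8 of 18 lower and 0 higher. The genes and lists were chosen with earlier results of these data known.

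Markers of the cells best known for these genes were read beside them. Over all genes 10.9% were lower and 8.21% higher in iNSC minus MEF, and 9.96% and 8.72% in NSC minus MEF. In iNSC minus NSC 6.55% of all genes were called, with 3.65% lower. Counts of 1 of 8 against MEF lie near these shares. For oligodendrocyte progenitors, a cell type defined by Pdgfra in the brain, 1 of 8 measured markers was lower in iNSC than in MEF, and 1 was lower and 1 higher in NSC than in MEF. In iNSC minus NSC 1 was higher. Olig2, a transcription factor of this lineage, had group means of 4.59 in NSC, 3.75 in iNSC1, 3.69 in iNSC2 and 3.48 in MEF, and Cspg4, the NG2 proteoglycan, changed by -1.38 ± 0.095 in iNSC minus MEF and by -2.58 ± 0.11 in NSC minus MEF (SE). For mural cells, known for Pdgfrb, 3 of 7 were lower in iNSC than in MEF, and 4 were lower and 1 higher in NSC than in MEF. In iNSC minus NSC 2 were lower. Mcam, an adhesion molecule of vessel wall cells, changed by -3.89 ± 0.11 and -2.06 ± 0.12, and by -1.83 ± 0.11 in iNSC minus NSC. Des, the muscle filament protein desmin, ran the other way in NSC, at 7.74 ± 0.078 against 5.42 ± 0.12 in MEF (SD, n = 3 each), a rise of 2.32 ± 0.12 (SE), and was -2.50 ± 0.11 in iNSC minus NSC. Melanocyte markers, of a lineage that needs Kit, had 0 of 5 called by limma in these comparisons or in iNSC1 minus iNSC2, with Pmel alone at an unadjusted p under 0.05, in iNSC minus MEF. Of mast cell markers, 4 of 8 were measured. Gata2, a transcription factor of blood progenitors and mast cells, was the 1 called, at -1.38 in iNSC minus MEF, 1.45 in NSC minus MEF and -2.83 in iNSC minus NSC. Of 12 pluripotency and germ cell markers, which include cells known for Kit, 8 were measured. Nanog, Zfp42, Dazl and Ddx4 were not. Of the 8, 4 were higher in iNSC than in MEF, 2 in NSC than in MEF and 2 in iNSC than in NSC, with 0 lower. The 2 that separated iNSC from NSC were Utf1 (3.19) and Gdf3 (3.93), a transcription cofactor and a growth factor of pluripotent cells. The mean of Utf1 was 4.87 ± 0.13 on the NSC arrays, 6.87 ± 0.089 on those of iNSC2 and 9.25 ± 0.12 on those of iNSC1 (SD, n = 3 each). It was the 1 marker of this list called in iNSC1 minus iNSC2 (2.38 ± 0.15, SE; adjusted p = 8.50e-08).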

How the data were processed

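Total RNA (300 ng) was hybridised to 12 arrays, per the labels' protocols. The authors deposited log2 values, and the submitters' processing notes name RMA and Affymetrix Power Tools (version and annotation build not given in the sources used here). RMA corrects background and equalises the value distributions of the arrays, so it can hide a shift of all genes. A second deposited table holds log2 ratios and adjusted p-values of the authors, whose test its headers do not name, and gene symbols. It lists 21774 of 28815 probe sets. Of these, 18403 had 1 symbol, 1452 several and 1919 none, and 17520 matched RefSeq by Entrez ID. For 706 genes with several probe sets the one with the highest mean over all arrays was kept, leaving 17103 genes. Of the second table's array columns, 9 equalled the values of the first table and 3, of iNSC2, were not used because their names did not match the labels.

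Group means were compared with limma 3.58.1 in R 4.3.3 (a spread shared by 4 groups of 3, moderated with a trend, two-sided), tested on simulated data. Within-group correlations were 0.987 to 0.994, and no pair of arrays shared over 0.337% of values. The PDGF and Kit genes, the pathway lists and the marker lists were chosen with earlier results of these data known. The text names every PDGF and Kit gene, up to 4 called genes of a list with the largest change per comparison, and the 3 genes nearest each called member, except that 1 gene counted in the list of signal attenuators is not reported here. Leaving out each array, array centring, probe set rules, low-value and fold minimums, variance settings and a replicate block were tried.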

Additional observations from a re-analysis of the deposited data

How the results depend on the processing

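Each of the 8 comparisons of the PDGF and Kit genes was repeated under 22 alternatives. Among the values of these genes, 0 calls reversed direction and 0 were lost where the gene was measured. In iNSC minus MEF and NSC minus MEF the count of called genes was 6 whichever array was left out, and it was 4 where a highest group mean of at least 6 was required, since Pdgfra, Pdgfd and Kit were then not measured. Without the fold minimum the count was 2 in iNSC minus NSC and 2 in iNSC1 minus NSC (Pdgfra and Pdgfa), 1 in iNSC2 minus NSC (Pdgfa), and 7 in NSC minus MEF, with Kit added. These counts were 0, 0, 0 and 6 with it, and in iNSC1 minus iNSC2 the count was 0 in every setting. Without the fold minimum the calls in the pathway lists rose to between 6 and 20 a list in the comparisons of iNSC or NSC. Of 15 pairs of arrays with the same replicate number, 6 had deviations correlated over 0.1 (range -0.18 to 0.28). Pairs with other numbers ranged from -0.31 to 0.28. These correlations did not settle whether replicate numbers pair the samples. With the replicate block the counts of called PDGF and Kit genes stayed 6, 6, 0 and 0, and the adjusted p of Kit in iNSC minus NSC was 0.0147. In that fit MEF replicate 5 shares its number with no other array and adds nothing. Socs3 and Spred2 lost their calls in iNSC minus MEF with the block (-0.93 and 0.95) and when a gene's probe sets were averaged (-0.49 and 0.97). The cause was not tested. With 3 arrays a group and no detection call, low readings cannot be told from background.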
